A study of Arabidopsis thaliana with 24 samples.

Results

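The genes described here are the glutathione transferases of the phi (GSTF) and tau (GSTU) classes of Arabidopsis thaliana. Members were 11 GSTF and 28 GSTU loci, listed by gene identifier without use of any measured value, and all 39 were found among the 33977 gene identifiers of the count tables. The family was chosen with earlier results of these data known. The genes *GSTF12* and *GSTF14* are not among the members. The tables hold 3′Tag-Seq counts from 24 libraries in 8 groups of 3 biological replicates. The groups are root and shoot of *hy5-215* at 28 °C, *hy5-215* at 22 °C, Col-0 at 28 °C and Col-0 at 22 °C. The *hy5-215* line carries a mutant *HY5* allele in the accession Col-0, which served as the wild type. Per the labels, seedlings grew for 5 days in white light (25 µmol) at 22 °C on medium without sucrose and were then kept for 4 h of continuous white light at 22 or 28 °C, so every group saw light and none was dark-grown. The paper gives a slightly greater seedling age and light intensity than the labels. The labels call the upper organ hypocotyl and the paper calls it shoot (hypocotyl and cotyledon). It is called shoot here. The comparisons address which part of the seedling carries each member, how the members change within hours of warmth, and how they differ when *HY5* is mutated.

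Glutathione transferases join the tripeptide glutathione to electrophilic compounds, such as herbicides, oxidised lipids and intermediates of plant metabolism, or carry such compounds as binding proteins. The phi and tau classes are the large plant classes, known for detoxification of herbicides and explosives and for roles in making the defence compounds camalexin and glucosinolates, and many members are induced by oxidants, wounding, pathogens and hormones. HY5 is a bZIP transcription factor that promotes light-dependent development and binds DNA elements with an ACGT core, of which the G-box is one.

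Total counts ranged from 1212281 to 3781032 per library, and the shallowest group was the Col-0 root at 22 °C (1212281 to 1828946). In 3′Tag-Seq a transcript gives a fragment near its 3′ end, so levels, given as counts per 1000000 after TMM scaling (CPM), were compared between genes without a length correction. Dissection was checked with 8 genes of green tissue and 8 of root. The summed green tissue genes stood at 407 to 1026 CPM in root and 38610 to 72370 CPM in shoot libraries, and the summed root genes at 474 to 1295 CPM in root and 58.8 to 127 CPM in shoot libraries. *HY5* transcript was lower in *hy5-215* than in Col-0 roots, with a log2 fold change of -2.35 (SE 0.18, edgeR adjusted p = 3.94e-10) at 28 °C and -1.92 (SE 0.21, edgeR adjusted p = 3.77e-07) at 22 °C. In shoots the log2 fold changes of -0.57 (SE 0.25, edgeR adjusted p = 0.213) at 28 °C and -0.53 (SE 0.18, edgeR adjusted p = 0.0513) at 22 °C did not pass the threshold. A change is called a rise or a fall below where edgeR's quasi-likelihood test gave an adjusted p no greater than 0.05 over all genes tested. It is called a DEG where the change was also at least 2-fold.

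Of the 39 members, 33 (10 GSTF and 23 GSTU) had enough counts for a test in at least 1 of the 10 comparisons of 2 groups. The other 6 were *GSTF5*, *GSTU3*, *GSTU11*, *GSTU12*, *GSTU15* and *GSTU21*. *GSTU15* had no count in any library, and none of the 6 had more than 39 counts over the 24 libraries. The counts of risen and fallen members below are over the members tested in each comparison, never over all 39. The summed level of the family was highest in *hy5-215* roots, with 4949, 5322 and 5344 CPM at 28 °C and 5532, 5849 and 5911 CPM at 22 °C. In Col-0 roots the sum was 2954, 3098 and 3615 CPM at 28 °C and 3772, 3791 and 3797 CPM at 22 °C. The *hy5-215* and Col-0 root libraries therefore did not overlap at either temperature. Shoot sums were 3539, 3918 and 4055 CPM (28 °C) and 3598, 4302 and 4353 CPM (22 °C) in *hy5-215*, and 2922, 3288 and 3513 CPM (28 °C) and 4324, 4367 and 4523 CPM (22 °C) in Col-0. In shoots the genotypes overlapped at 22 °C and did not at 28 °C, where the sums of Col-0 were the lower.

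*GSTF8*, *GSTF9*, *GSTF10* and *GSTU19* together held 62.8% to 73.6% of the summed level, depending on the group, so the sum mostly follows these genes. *GSTU19* (AT1G78380), the abundant tau enzyme known for induction by herbicide safeners, had the highest mean of the family at 22 °C in *hy5-215* roots, *hy5-215* shoots and Col-0 shoots, whereas in Col-0 roots it came after *GSTF9* and *GSTF8*. Phi genes held 54.3% of the sum in *hy5-215* roots and 65.3% in Col-0 roots at 22 °C, although phi is the class with fewer members. In shoots at 22 °C the phi share was 52.1% in *hy5-215* and 52.0% in Col-0.

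**Figure D1:**
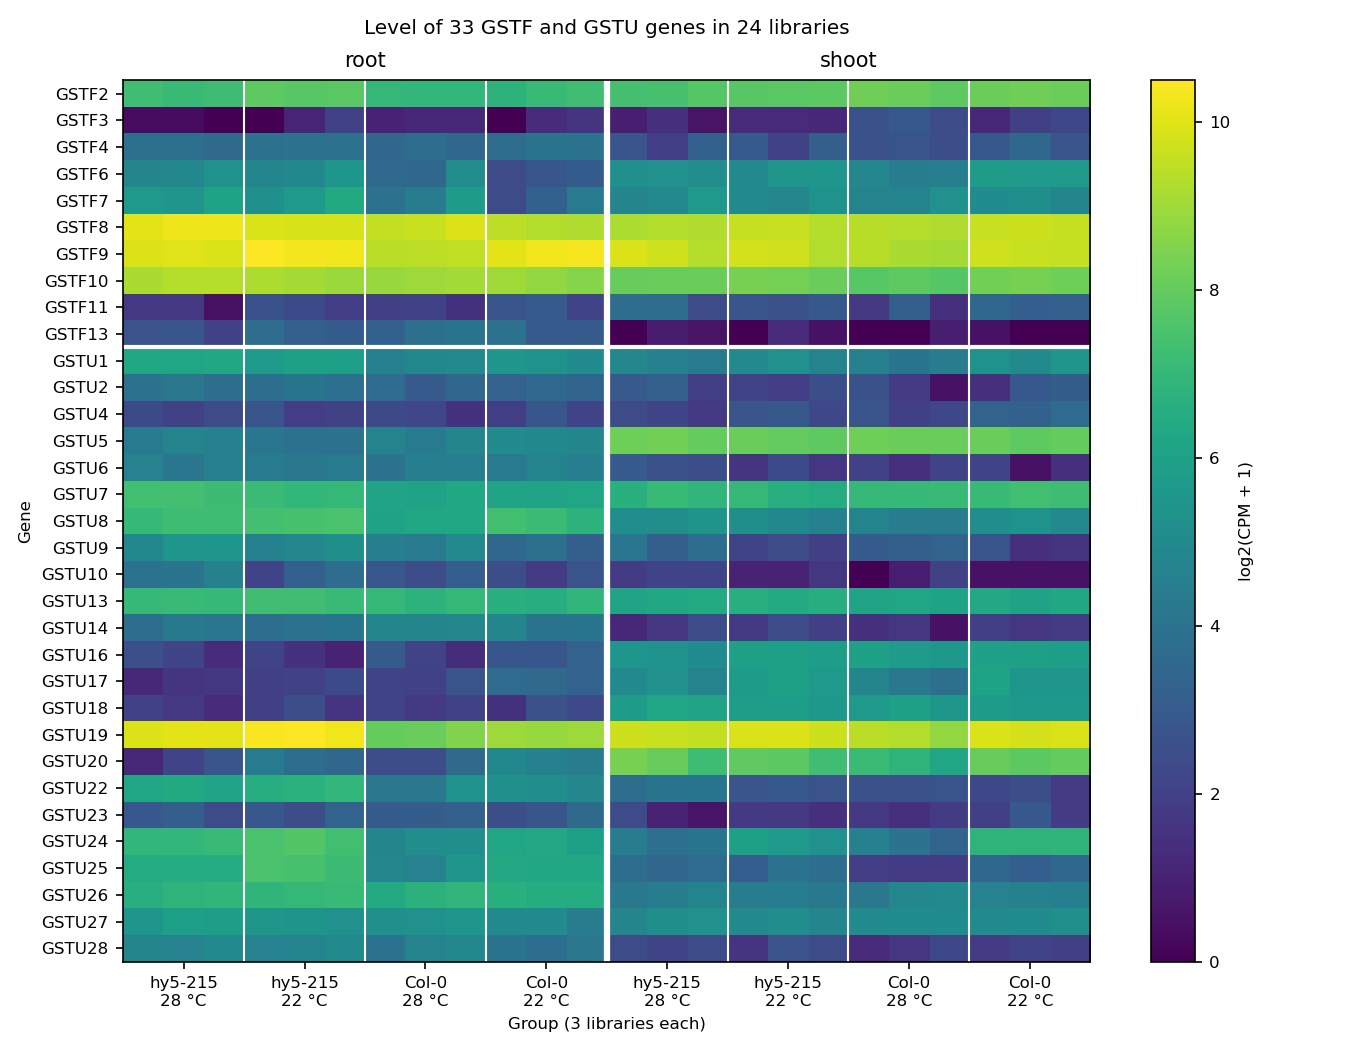
Level of the 33 tested members in each of the 24 libraries, as log2(CPM + 1) by colour, with genes in rows (GSTF above the white line, GSTU under it) and libraries in columns (root left, shoot right, 3 per group). *GSTF8*, *GSTF9*, *GSTF10* and *GSTU19* are the brightest rows in root libraries and *GSTF8*, *GSTF9* and *GSTU19* in shoot libraries, while *GSTU5*, *GSTU16*, *GSTU17*, *GSTU18* and *GSTU20* are brighter in shoot than in root libraries.

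At 22 °C the family split between the organs. In *hy5-215*, 22 of 32 tested members were higher in root than in shoot and 5 were lower (all genes 31.6% and 33.7%). In Col-0, 14 of 31 were higher and 13 lower (all genes 30.6% and 32.2%). DEGs numbered 19 in each genotype (14 higher and 5 lower in *hy5-215* roots, 9 higher and 10 lower in Col-0 roots), against 41.6% and 41.5% of all genes tested in *hy5-215* and Col-0. The median log2 fold change of the tested members, root over shoot, was 0.73 in *hy5-215* and 0.05 in Col-0, against 0.01 for all genes in either genotype. With scaling by library size alone, the median of all genes shifted by 0.68 in *hy5-215* and 0.47 in Col-0, so organ differences of that size depend on the scaling. DEGs were then 22 higher and 5 lower in *hy5-215* roots, and 14 higher and 7 lower in Col-0 roots.

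*GSTF13* (AT3G62760) was counted almost only in roots of Col-0, with 31, 14 and 11 counts in the root libraries and 1, 0 and 0 in the shoot libraries, which were at the floor of 3 counts or fewer per library, so no fold is given. Among members above that floor, *GSTU6* and *GSTU22* led the root end. *GSTU6* (AT2G29440) stood at 19.7, 25.5 and 21.5 CPM in Col-0 roots and 3.44, 0.429 and 1.69 CPM in Col-0 shoots, a log2 fold change of 3.57 (SE 0.40, edgeR adjusted p = 1.58e-08). Its shoot levels were low, and the log2 fold change was 3.08 to 4.32 with each library left out in turn. *GSTU22* (AT1G78340) stood at 37.1, 34.0 and 28.2 CPM in Col-0 roots and 3.87, 4.72 and 2.53 CPM in Col-0 shoots, a log2 fold change of 3.17 (SE 0.28, edgeR adjusted p = 3.37e-10). None of these root and shoot values overlapped. *GSTU25* (AT1G17180), which with its neighbour *GSTU24* is known for conjugating the explosive TNT, had 80.2, 74.5 and 76.5 CPM in Col-0 roots and 10.3, 7.73 and 10.5 CPM in Col-0 shoots. For *GSTU25* the log2 fold change was 3.03 (SE 0.18, edgeR adjusted p = 1.72e-13).

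At the shoot end stood *GSTU18*, *GSTU20* and *GSTU16*, with *GSTF6* and *GSTU5* next. *GSTU18* (AT1G10360) had 1.88, 5.00 and 4.02 CPM in roots and 55.0, 47.2 and 48.1 CPM in shoots of Col-0. For *GSTU18* the log2 fold change was -3.77 (SE 0.27, edgeR adjusted p = 4.41e-12). *GSTU20* (AT1G78370), known for a part in glucosinolate synthesis, had 29.1, 23.5 and 20.1 CPM in Col-0 roots and 267, 232 and 257 CPM in Col-0 shoots. For *GSTU20* the log2 fold change was -3.33 (SE 0.14, edgeR adjusted p = 1.22e-16). *GSTU16* (AT1G59700) had 6.10, 6.0 and 8.72 CPM in Col-0 roots and 64.0, 62.2 and 56.9 CPM in Col-0 shoots. For *GSTU16* the log2 fold change was -3.14 (SE 0.21, edgeR adjusted p = 1.73e-12). These shoot genes were far apart between the organs in *hy5-215* as well, with log2 fold changes of -4.03 (edgeR adjusted p = 2.1e-15) for *GSTU18*, -3.99 (edgeR adjusted p = 6.16e-18) for *GSTU20* and -4.87 (edgeR adjusted p = 8.12e-17) for *GSTU16*. *GSTU5* (AT2G29450) had 16.6, 14.6 and 14.2 CPM in roots and 275, 254 and 238 CPM in shoots of *hy5-215*, and 32.8, 29.0 and 27.5 CPM in roots and 279.8, 237 and 259 CPM in shoots of Col-0.

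Many members lie in groups of neighbours. *GSTU1* to *GSTU7* lie within 14.6 kb of chromosome 2 (12617936 to 12632538), *GSTU19* to *GSTU23* within 20.6 kb of chromosome 1 (29467412 to 29488007), *GSTU24* to *GSTU26* within 7.1 kb of chromosome 1 (5869543 to 5876620) and *GSTF4* to *GSTF7* within 7.9 kb of chromosome 1 (658578 to 666471, coordinates of TAIR10.1). Neighbours were alike in their organ in some groups and not in others. At 22 °C in Col-0, *GSTU17* and *GSTU18* were both lower in root than in shoot (log2 fold changes -2.23 and -3.77). *GSTF9* and *GSTF10* were both higher in root (0.61 and 0.57). In the *GSTU19* group of Col-0 at 22 °C, *GSTU20* was a shoot gene and *GSTU22* a root gene, and in the *GSTU1* to *GSTU7* group *GSTU5* was a shoot gene (log2 fold change -3.09, edgeR adjusted p = 1.57e-16) and *GSTU6* a root gene. Close copies, in tandem or on different chromosomes, can also share reads. The last 300 bases of the *GSTF2* transcript matched *GSTF3* at 90.2% over 163 bases. Those of *GSTF3* matched *GSTF2* at 92.1% over 302 aligned bases. *GSTF6* and *GSTF7* were 78.3% identical over 189 bases there, and *GSTU24* and *GSTU25* 78.8% over 99 bases. *GSTU17* and *GSTU18* overlap by 71 bases on the same strand, *GSTF8* overlaps the locus AT2G47720 and *GSTU10* the locus AT1G74600 on the same strand, and *GSTF2*, *GSTF4*, *GSTF10*, *GSTF11*, *GSTU2*, *GSTU6*, *GSTU7* and *GSTU10* overlap a gene on the opposite strand. The sources used here do not say whether strand was used in counting. The values of these genes may therefore include reads of their partners or miss reads from the overlap.

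The 250 bases before the annotated start of each member were searched on both strands for CACGTG (the G-box), ACGT (the core that bZIP factors such as HY5 bind), TGACG (the as-1 core, bound by TGA bZIP factors) and GAANNTTC (a core of heat shock elements). ACGT lies inside CACGTG and overlaps TGACG in TGACGT, so these counts are not independent of each other. The ACGT core was found in 27 of 39 windows (69.2%), against 44.1% of 27443 windows of all genes, and TGACG in 14 (35.9%), against 18.6%. The G-box was found in 3 (7.7%, all genes 6.5%), and GAANNTTC in 5 (12.8%, all genes 9.6%). Of the 17 members that were DEGs in any comparison of temperature or genotype, 12 held ACGT, 7 TGACG, 4 GAANNTTC and 2 CACGTG. A match describes the letters in the window and is no evidence that a factor binds there. The windows of 4 members are shown because these genes carry the contrasts between organs and genotypes given further on. *GSTF7* is among the members with the largest rises in Col-0 roots at 28 °C, *GSTU24* and *GSTU25* are neighbours that fell in both organs of Col-0 at 28 °C, and *GSTU22* moved in opposite directions in root and shoot of *hy5-215*. Capitals mark the motif letters in these windows of TAIR10.1 at chr1:659981-660230 (*GSTF7*, minus strand), chr1:29474004-29474253 (*GSTU22*, minus), chr1:5869293-5869542 (*GSTU24*, plus) and chr1:5871774-5872023 (*GSTU25*, plus), each written 5′ to 3′ on the strand of the gene and ending at the base before its start.
GSTF7: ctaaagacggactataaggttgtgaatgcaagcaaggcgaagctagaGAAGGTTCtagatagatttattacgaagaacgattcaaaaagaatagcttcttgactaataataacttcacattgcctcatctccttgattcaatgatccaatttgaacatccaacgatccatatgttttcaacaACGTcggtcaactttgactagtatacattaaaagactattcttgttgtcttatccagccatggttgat
GSTU22: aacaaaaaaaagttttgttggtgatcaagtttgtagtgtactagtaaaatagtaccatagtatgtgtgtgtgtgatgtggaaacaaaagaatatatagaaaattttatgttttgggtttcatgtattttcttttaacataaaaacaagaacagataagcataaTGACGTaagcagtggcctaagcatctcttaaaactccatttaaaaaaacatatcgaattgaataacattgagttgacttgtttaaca
GSTU24: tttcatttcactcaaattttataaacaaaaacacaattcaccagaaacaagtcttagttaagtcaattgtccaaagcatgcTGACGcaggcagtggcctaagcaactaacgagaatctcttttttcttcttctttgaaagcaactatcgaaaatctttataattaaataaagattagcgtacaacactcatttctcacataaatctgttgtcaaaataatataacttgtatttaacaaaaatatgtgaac
GSTU25: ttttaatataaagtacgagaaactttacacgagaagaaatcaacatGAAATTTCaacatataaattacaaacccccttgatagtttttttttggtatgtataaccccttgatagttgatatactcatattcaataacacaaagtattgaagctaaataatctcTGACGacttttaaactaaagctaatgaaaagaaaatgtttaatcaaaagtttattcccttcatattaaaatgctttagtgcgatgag
The *GSTF7* window holds an ACGT core with its first base at -68 from the gene start and no G-box. TGACG stands at -87 in the windows of *GSTU22* and *GSTU25* and at -169 in that of *GSTU24*.

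In shoots at 28 °C, falls outnumbered rises in Col-0, and few members passed in *hy5-215*. Of 27 members tested in each genotype, 2 rose and 3 fell in *hy5-215* shoots, whereas 1 rose and 13 fell in Col-0 shoots. In *hy5-215* shoots these were 2 DEGs higher and 1 lower (all genes 1.77% and 1.82%), and in Col-0 shoots 1 DEG higher and 7 lower (all genes 2.15% and 3.15%). Without the fold limit, 7.52% of all genes rose and 9.32% fell in *hy5-215* shoots, and 11.5% rose and 13.5% fell in Col-0 shoots. The median log2 fold change of the tested members was 0.07 in *hy5-215* shoots and -0.44 in Col-0 shoots, and that of all genes 0.008 in each. Leaving out each library in turn gave 3 to 5 falls in *hy5-215* and 10 to 13 in Col-0. Of the 13 members that fell in Col-0 shoots, *GSTU17* and *GSTU24* also fell in *hy5-215* shoots, and 9 of the 13 had a negative log2 fold change there. The 13 were taken by their fall in Col-0, and the matching shares of all genes were not computed, so these counts have no background. The difference between the genotypes passed a test of its own for 5 of the 13, which are given with the interaction of genotype and temperature.

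*GSTU24* (AT1G17170) had the largest fall in Col-0 shoots, to 22.6, 14.9 and 9.53 CPM at 28 °C, against 113, 113 and 111 CPM at 22 °C, a log2 fold change of -2.85 (SE 0.17, edgeR adjusted p = 1.54e-12). In *hy5-215* shoots it stood at 20.2, 13.4 and 15.9 CPM at 28 °C and 61.9, 49.5 and 38.2 CPM at 22 °C. For *GSTU24* the log2 fold change was -1.58 (SE 0.19, edgeR adjusted p = 2.24e-06). The genotypes thus overlapped at 28 °C, while at 22 °C every *hy5-215* library was lower than every Col-0 library. *GSTU25* fell in Col-0 shoots, with 2.77, 2.56 and 2.60 CPM at 28 °C and 10.3, 7.73 and 10.5 CPM at 22 °C (log2 fold change -1.83, SE 0.36, edgeR adjusted p = 0.000457). In *hy5-215* shoots it had 13.1, 10.2 and 11.6 CPM at 28 °C and 7.85, 14.9 and 12.8 CPM at 22 °C. For *GSTU25* the log2 fold change was -0.07 (SE 0.26, edgeR adjusted p = 0.906). Its Col-0 values at 28 °C were 6 counts in each library, so the size of that fall rests on few counts.

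Among the shoot genes, *GSTU17* (AT1G10370), known for a part in light signalling and drought response, fell in both genotypes. It had 31.2, 38.1 and 24.6 CPM at 28 °C and 52.5, 62.1 and 50.6 CPM at 22 °C in *hy5-215* shoots. For *GSTU17* the log2 fold change was -0.80 (SE 0.16, edgeR adjusted p = 0.000821). In Col-0 shoots it had 26.3, 17.5 and 13.9 CPM at 28 °C and 66.2, 44.2 and 45.1 CPM at 22 °C. For *GSTU17* the log2 fold change was -1.44 (SE 0.20, edgeR adjusted p = 4.88e-06). *GSTU20* had 328, 268 and 148 CPM at 28 °C and 244, 233 and 156 CPM at 22 °C in *hy5-215* shoots, which overlap. For *GSTU20* the log2 fold change was 0.25 (SE 0.18, edgeR adjusted p = 0.401). In Col-0 shoots it had 139.8, 112 and 74.1 CPM at 28 °C and 267, 232 and 257 CPM at 22 °C, which do not. For *GSTU20* the log2 fold change was -1.22 (SE 0.14, edgeR adjusted p = 3.24e-07). *GSTF11* (AT3G03190), the phi gene known for a part in glucosinolate synthesis, had 2.31, 8.11 and 1.73 CPM at 28 °C and 10.3, 7.73 and 8.44 CPM at 22 °C in Col-0 shoots, and its groups overlap. Its log2 fold change of -1.1 (SE 0.41, edgeR adjusted p = 0.0488) did not pass without replicate 1 at 28 °C, replicate 3 at 28 °C, replicate 1 at 22 °C, replicate 2 at 22 °C or replicate 3 at 22 °C (adjusted p = 0.0841 to 0.213), nor with DESeq2 (adjusted p = 0.133) or in a joint fit of all 24 libraries (adjusted p = 0.0797). *GSTU4* (AT2G29460) had 5.54, 2.99 and 3.90 CPM at 28 °C and 9.03, 8.59 and 11.8 CPM at 22 °C in Col-0 shoots (log2 fold change -1.25, SE 0.34, edgeR adjusted p = 0.00773). The call of *GSTU4* was lost without replicate 2 at 28 °C (-1.05, adjusted p = 0.057) or replicate 3 at 22 °C (-1.09, adjusted p = 0.0555).

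The phi gene *GSTF6* (AT1G02930), which takes part in camalexin synthesis, had 37.5, 38.5 and 34.7 CPM at 28 °C and 31.9, 43.8 and 45.0 CPM at 22 °C in *hy5-215* shoots. For *GSTF6* the log2 fold change was -0.13 (SE 0.15, edgeR adjusted p = 0.639). In Col-0 shoots it had 28.1, 20.1 and 21.2 CPM at 28 °C and 54.6, 50.2 and 48.9 CPM at 22 °C. For *GSTF6* the log2 fold change was -1.15 (SE 0.16, edgeR adjusted p = 4.05e-06). Abundant members fell by less than 2-fold in Col-0 shoots. *GSTU19* stood at 678, 625 and 443 CPM at 28 °C and 958, 892 and 946 CPM at 22 °C (log2 fold change -0.68, SE 0.11, edgeR adjusted p = 7.04e-05), and *GSTF10* (AT2G30870) at 218, 236 and 211 CPM at 28 °C and 304, 322 and 293 CPM at 22 °C. For *GSTF10* the log2 fold change was -0.47 (SE 0.10, edgeR adjusted p = 0.000605). *GSTU1* (-0.97, edgeR adjusted p = 0.000245) and *GSTF9* (-0.44, edgeR adjusted p = 0.00136) fell as well on the log2 scale, and *GSTU8* (-0.64, edgeR adjusted p = 0.00692) lost its call without replicate 2 at 22 °C (-0.53, adjusted p = 0.0571).

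*GSTU9* (AT5G62480) was the member that rose in shoots of both genotypes. It had 16.4, 7.99 and 13.0 CPM at 28 °C and 3.44, 4.41 and 2.98 CPM at 22 °C in *hy5-215* shoots. For *GSTU9* the log2 fold change was 1.74 (SE 0.35, edgeR adjusted p = 0.000973). In Col-0 shoots it had 7.38, 8.11 and 9.10 CPM at 28 °C and 5.59, 1.72 and 2.11 CPM at 22 °C. For *GSTU9* the log2 fold change was 1.37 (SE 0.40, edgeR adjusted p = 0.0119). The Col-0 call was lost without replicate 2 at 22 °C (1.08, adjusted p = 0.0873) or replicate 3 at 22 °C (1.15, adjusted p = 0.0755). *GSTU22* rose in *hy5-215* shoots, with 12.2, 15.6 and 15.9 CPM at 28 °C and 5.89, 6.45 and 5.52 CPM at 22 °C. For *GSTU22* the log2 fold change was 1.28 (SE 0.27, edgeR adjusted p = 0.00151). Another fall of *hy5-215* shoots was that of *GSTU16*, to 44.6, 39.9 and 33.2 CPM at 28 °C against 60.9, 62.1 and 56.5 CPM at 22 °C. For *GSTU16* the log2 fold change was -0.59 (SE 0.14, edgeR adjusted p = 0.00344).

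A list of 9 early touch and wound genes moved with the shoot treatment, and its part in the result was not tested. All 9 were lower at 28 °C in either genotype, where 9.32% of all genes fell in *hy5-215* shoots and 13.5% in Col-0 shoots. The list was chosen with earlier results of these data known. The summed level of the 9 was 355 to 688 CPM at 28 °C and 1434 to 1623 CPM at 22 °C in *hy5-215* shoots. In Col-0 shoots it was 171 to 502 CPM at 28 °C and 1273 to 1354 CPM at 22 °C. The summed green tissue genes were also lower at 28 °C, with 55240 to 56230 CPM at 28 °C and 70670 to 72370 CPM at 22 °C in *hy5-215* shoots, and 38610 to 50780 CPM at 28 °C and 54670 to 60380 CPM at 22 °C in Col-0 shoots. In whole organs, fewer cells of a type and less RNA per cell cannot be told apart.

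In roots, rises and falls were more even in Col-0, and falls were the more frequent in *hy5-215*. Of 29 members tested in each genotype, 1 rose and 7 fell in *hy5-215* roots (all genes 3.12% and 2.96%). In Col-0 roots 4 rose and 7 fell (all genes 2.62% and 3.7%). DEGs were 1 higher and 1 lower in *hy5-215* roots (all genes 1.11% and 0.632%), and 3 higher and 4 lower in Col-0 roots (all genes 0.946% and 1.49%). The median log2 fold change of the tested members was -0.05 in *hy5-215* roots and -0.02 in Col-0 roots, close to that of all genes (0.003 and 0.008). Leaving out each library in turn gave 0 to 3 rises and 3 to 7 falls in *hy5-215* roots, and 0 to 4 rises and 6 to 8 falls in Col-0 roots. No rise passed in Col-0 roots without replicate 3 at 28 °C, and DEGs there numbered 4 without that library or without replicate 1 or replicate 2 at 22 °C. In *hy5-215* roots 3 falls passed without replicate 2 at 22 °C, and 1 DEG was left in 5 of the 6 fits (all but the fit without replicate 3 at 22 °C).

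Falls in roots were those of *GSTU20*, *GSTU24*, *GSTU25*, *GSTU19* and *GSTF9* in both genotypes, of *GSTF2* and *GSTU22* in *hy5-215*, and of *GSTU17* and *GSTU8* in Col-0. *GSTU20* fell to 1.3, 3.37 and 5.73 CPM at 28 °C against 18.5, 13.0 and 10.1 CPM at 22 °C in *hy5-215* roots (log2 fold change -2.07, SE 0.36, edgeR adjusted p = 0.000261), and to 4.60, 4.64 and 11.4 CPM at 28 °C against 29.1, 23.5 and 20.1 CPM at 22 °C in Col-0 roots. For *GSTU20* the log2 fold change in Col-0 roots was -1.82 (SE 0.31, edgeR adjusted p = 0.00101). *GSTU25* had 86.5, 90.6 and 90.6 CPM at 28 °C and 179.7, 173 and 144 CPM at 22 °C in *hy5-215* roots. For *GSTU25* the log2 fold change was -0.89 (SE 0.12, edgeR adjusted p = 2.11e-06). In Col-0 roots it had 27.9, 24.5 and 43.0 CPM at 28 °C and 80.2, 74.5 and 76.5 CPM at 22 °C. For *GSTU25* the log2 fold change was -1.28 (SE 0.18, edgeR adjusted p = 0.000176). *GSTU24* had 121, 124 and 132 CPM at 28 °C and 177, 206 and 159 CPM at 22 °C in *hy5-215* roots, a log2 fold change of -0.53 (SE 0.11, edgeR adjusted p = 0.00315) that did not pass without replicate 2 at 22 °C (-0.42, adjusted p = 0.0928). In Col-0 roots it had 26.3, 34.7 and 35.4 CPM at 28 °C and 71.3, 80.5 and 61.7 CPM at 22 °C. For *GSTU24* the log2 fold change was -1.15 (SE 0.17, edgeR adjusted p = 0.000205). Temperature groups of *GSTU20*, *GSTU24* and *GSTU25* did not overlap in roots of either genotype.

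*GSTU8* (AT3G09270) had 65.0, 76.8 and 78.4 CPM at 28 °C and 157, 143 and 111 CPM at 22 °C in Col-0 roots. For *GSTU8* the log2 fold change was -0.90 (SE 0.14, edgeR adjusted p = 0.000545). *GSTU17* had 3.28, 3.10 and 5.69 CPM at 28 °C and 11.7, 11.5 and 8.72 CPM at 22 °C there (log2 fold change -1.41, SE 0.37, edgeR adjusted p = 0.0246). The call of *GSTU17* was lost without replicate 1 at 28 °C, replicate 2 at 28 °C, replicate 1 at 22 °C or replicate 2 at 22 °C (adjusted p = 0.0837 to 0.126). The abundant *GSTU19* had 259, 276 and 365 CPM at 28 °C and 496, 474 and 503 CPM at 22 °C in Col-0 roots. For *GSTU19* the log2 fold change was -0.71 (SE 0.11, edgeR adjusted p = 0.000545). In *hy5-215* roots its log2 fold change of -0.36 (SE 0.10, edgeR adjusted p = 0.0325) did not pass without replicate 1 at 28 °C, replicate 2 at 28 °C, replicate 3 at 28 °C or replicate 2 at 22 °C (adjusted p = 0.0866 to 0.26), nor in the joint fit (adjusted p = 0.0604). *GSTF9* (AT2G30860) stood at 677, 707 and 714 CPM at 28 °C and 1076, 1241 and 1298 CPM at 22 °C in Col-0 roots. For *GSTF9* the log2 fold change was -0.78 (SE 0.08, edgeR adjusted p = 9.07e-06). In *hy5-215* roots the change of *GSTF9* was -0.42 (SE 0.10, edgeR adjusted p = 0.00942) and was lost without replicate 1 at 28 °C (-0.42, adjusted p = 0.0744), replicate 3 at 28 °C (-0.40, adjusted p = 0.0621) or replicate 2 at 22 °C (-0.44, adjusted p = 0.0695). *GSTF2* also fell in *hy5-215* roots, to 155, 138 and 151 CPM at 28 °C against 235, 220.4 and 224 CPM at 22 °C. For *GSTF2* the log2 fold change was -0.62 (SE 0.11, edgeR adjusted p = 0.00025). *GSTU9* had 21.7, 18.9 and 29.4 CPM at 28 °C and 10.3, 13.5 and 8.05 CPM at 22 °C in Col-0 roots (log2 fold change 1.11, SE 0.26, edgeR adjusted p = 0.0131). It was no DEG without replicate 3 at 28 °C (0.91, adjusted p = 0.0666) or replicate 3 at 22 °C (0.98, adjusted p = 0.0304). *GSTU10* (AT1G74590) had 14.6, 15.6 and 22.9 CPM at 28 °C and 3.33, 8.29 and 12.5 CPM at 22 °C in *hy5-215* roots (log2 fold change 1.09, SE 0.29, edgeR adjusted p = 0.0187). The call of *GSTU10* was lost without replicate 1 at 28 °C, replicate 2 at 28 °C, replicate 3 at 28 °C, replicate 1 at 22 °C or replicate 2 at 22 °C (adjusted p = 0.0518 to 0.153). In Col-0, 7 members fell in both organs (*GSTF9*, *GSTU8*, *GSTU17*, *GSTU19*, *GSTU20*, *GSTU24* and *GSTU25*).

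The touch and wound genes differed between the genotypes in roots. Of the 9, 5 rose in *hy5-215* roots, with a summed level of 204 to 242 CPM at 28 °C and 124 to 144 CPM at 22 °C, and 4 fell in Col-0 roots, with 96.5 to 176 CPM at 28 °C and 232 to 351 CPM at 22 °C. In Col-0 roots 7 of the 8 green tissue genes fell and 4 of 7 tested root genes rose. The green tissue sum there was 471 to 626 CPM at 28 °C and 854 to 1026 CPM at 22 °C, and the root gene sum 668 to 717 CPM at 28 °C and 474 to 505 CPM at 22 °C. In *hy5-215* roots no green tissue gene passed (1 had an unadjusted p under 0.05) and 1 root gene fell. Among all genes, 3.12% rose and 2.96% fell in *hy5-215* roots, and 2.62% rose and 3.7% fell in Col-0 roots. The part of these lists in the GST values, the falls of the shoot genes *GSTU17* and *GSTU20* included, was not tested.

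**Figure D2:**
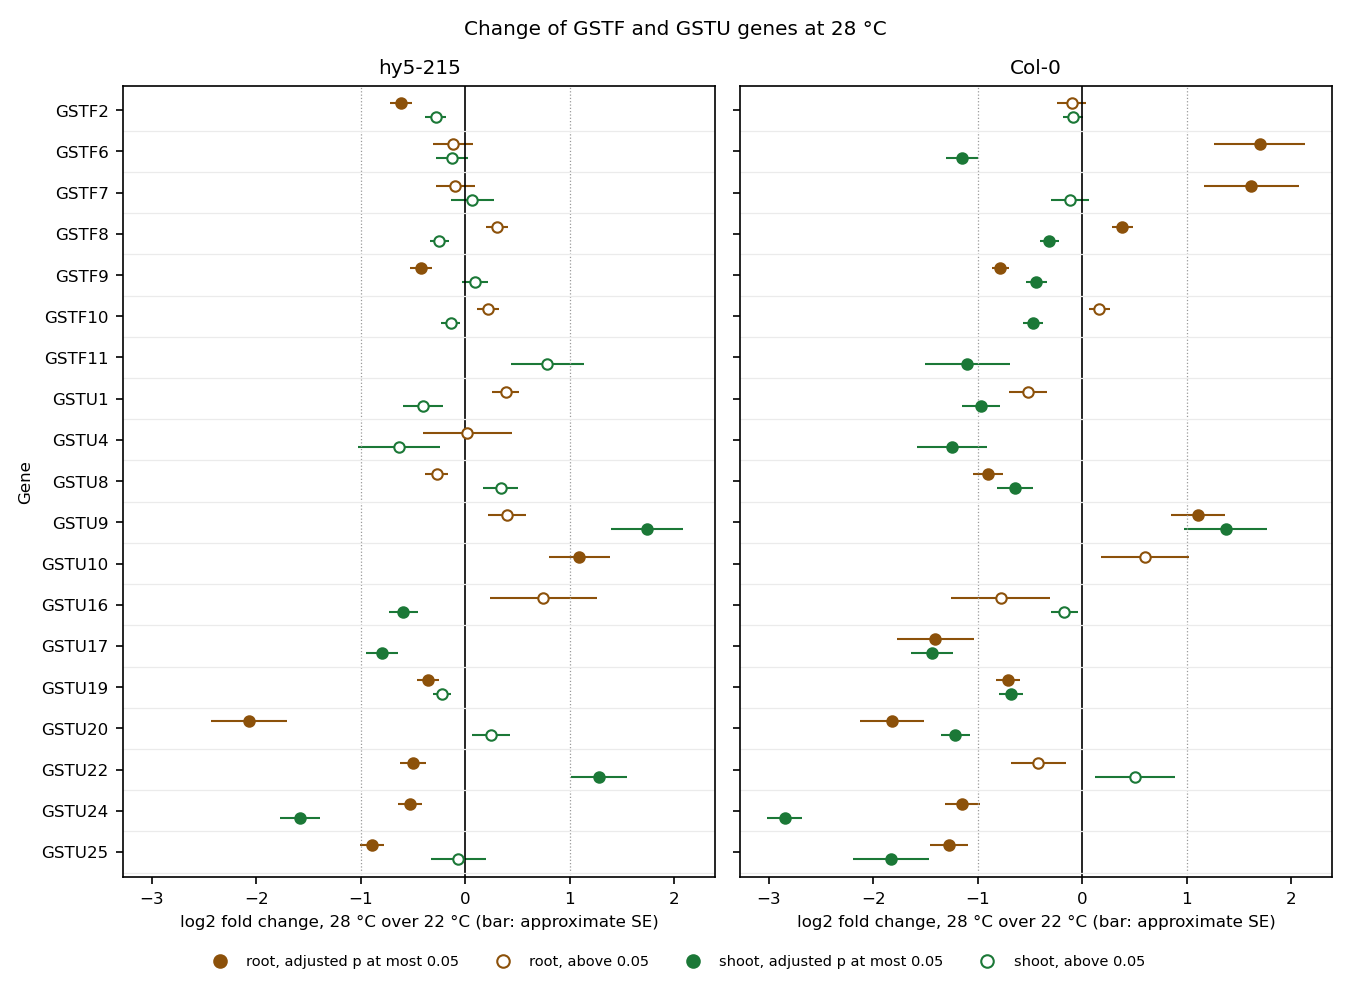
Log2 fold change, 28 °C over 22 °C, of the 19 members that passed in at least 1 of the 4 temperature comparisons, in root (brown) and shoot (green) of *hy5-215* (left) and Col-0 (right), with filled points at an adjusted p of at most 0.05, bars for the approximate SE and dotted lines at 2-fold. *GSTF6* lies at 1.70 in Col-0 roots and -1.15 in Col-0 shoots, and *GSTU22* at -0.50 in *hy5-215* roots and 1.28 in *hy5-215* shoots.

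Members that moved in opposite directions in the organs were few. In *hy5-215*, 24 members were tested in both organs, and *GSTU22* alone passed in both with opposite signs, while *GSTU24* passed in both with the same sign. In Col-0, 23 were tested in both organs, 2 passed in both with opposite signs (*GSTF6* and *GSTF8*) and 8 with the same sign. Among all genes, 0.43% in *hy5-215* and 0.265% in Col-0 passed in both organs with opposite signs, and 2.37% in *hy5-215* and 3.39% in Col-0 with the same sign.

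*GSTF6* had 11.2, 10.8 and 34.2 CPM at 28 °C and 4.22, 6.0 and 7.38 CPM at 22 °C in Col-0 roots (34, 35 and 108 counts and 9, 12 and 11 counts), while in Col-0 shoots all libraries at 28 °C were lower than those at 22 °C. The root groups do not overlap, and replicate 3 at 28 °C stands well above the others. The root log2 fold change was 1.70 (SE 0.44, edgeR adjusted p = 0.0221). It did not pass without replicate 3 at 28 °C (0.94, adjusted p = 0.185), replicate 1 at 22 °C (1.49, adjusted p = 0.0873) or replicate 2 at 22 °C (1.74, adjusted p = 0.125). The difference between the organs, tested as the root change minus the shoot change, was 2.85 (SE 0.46, edgeR adjusted p = 0.000278) in Col-0, and it passed in each of the 12 fits with 1 library left out (adjusted p at most 0.00256). Its neighbour *GSTF7* (AT1G02920) had 14.4, 21.1 and 55.3 CPM at 28 °C and 4.22, 8.50 and 18.8 CPM at 22 °C in Col-0 roots, which overlap (log2 fold change 1.62, SE 0.45, edgeR adjusted p = 0.0379). The call of *GSTF7* was lost without replicate 3 at 28 °C (0.85, adjusted p = 0.242), replicate 1 at 22 °C (1.2, adjusted p = 0.148) or replicate 2 at 22 °C (1.51, adjusted p = 0.209) and with DESeq2 (adjusted p = 0.38). In Col-0 shoots *GSTF7* had a log2 fold change of -0.12 (edgeR adjusted p = 0.697), which did not pass. In *hy5-215* neither gene passed in either organ.

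*GSTF8* (AT2G47730), an abundant phi gene known as a marker of early stress responses, had 744, 789.5 and 987 CPM at 28 °C and 699.9, 627 and 606 CPM at 22 °C in Col-0 roots. For *GSTF8* the log2 fold change was 0.38 (SE 0.10, edgeR adjusted p = 0.0214). In Col-0 shoots it had 669.8, 638 and 605 CPM at 28 °C and 792, 831 and 757 CPM at 22 °C. For *GSTF8* the log2 fold change was -0.32 (SE 0.09, edgeR adjusted p = 0.0109). The root call was lost without replicate 2 at 28 °C (0.43, adjusted p = 0.0596), replicate 3 at 28 °C (0.26, adjusted p = 0.0979) or replicate 2 at 22 °C (0.36, adjusted p = 0.139) and with DESeq2 (adjusted p = 0.0735). The shoot call was lost without replicate 2 at 28 °C (-0.31, adjusted p = 0.075) or replicate 2 at 22 °C (-0.29, adjusted p = 0.0648). The difference between the organs was 0.70 (SE 0.15, edgeR adjusted p = 0.0052) in Col-0, which passed in each of the 12 fits with 1 library left out. In *hy5-215* it was 0.60 (SE 0.15, edgeR adjusted p = 0.0119) and was lost without shoot replicate 1 at 22 °C (0.56, adjusted p = 0.0547) or shoot replicate 2 at 22 °C (0.53, adjusted p = 0.0695). *GSTF10* also passed this test in Col-0 (0.62, edgeR adjusted p = 0.0173), having fallen in shoots, while its change in roots did not pass, with 472, 493 and 528 CPM at 28 °C and 507, 444 and 385 CPM at 22 °C.

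*GSTU22* in *hy5-215* had 70.2, 82.8 and 69.5 CPM at 28 °C and 91.3, 102 and 122 CPM at 22 °C in roots. For *GSTU22* the log2 fold change was -0.50 (SE 0.13, edgeR adjusted p = 0.0121). Its rise in *hy5-215* shoots, given above, was at a much lower level. The root call was lost without replicate 1 at 28 °C (-0.46, adjusted p = 0.11), replicate 3 at 28 °C (-0.46, adjusted p = 0.0768) or replicate 2 at 22 °C (-0.53, adjusted p = 0.0511), and in the joint fit (adjusted p = 0.0519). The difference between the organs was -1.74 (SE 0.28, edgeR adjusted p = 5.65e-05), which passed in each of the 12 fits with 1 library left out. In Col-0 its log2 fold changes of -0.42 (edgeR adjusted p = 0.405) in roots and 0.50 (edgeR adjusted p = 0.377) in shoots did not pass. *GSTU20* differed between the organs of *hy5-215* (-2.29, edgeR adjusted p = 0.000798), where it fell in roots and did not pass in shoots. The fall of *GSTU24* was the larger in shoots, with a root change minus shoot change of 1.1 (edgeR adjusted p = 0.00128) in *hy5-215* and 1.69 (edgeR adjusted p = 0.000136) in Col-0. Of 32 members tested in each genotype, 5 passed this test in *hy5-215* and 4 in Col-0, where 3.71% and 2.78% of all genes did.

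**Figure D3:**
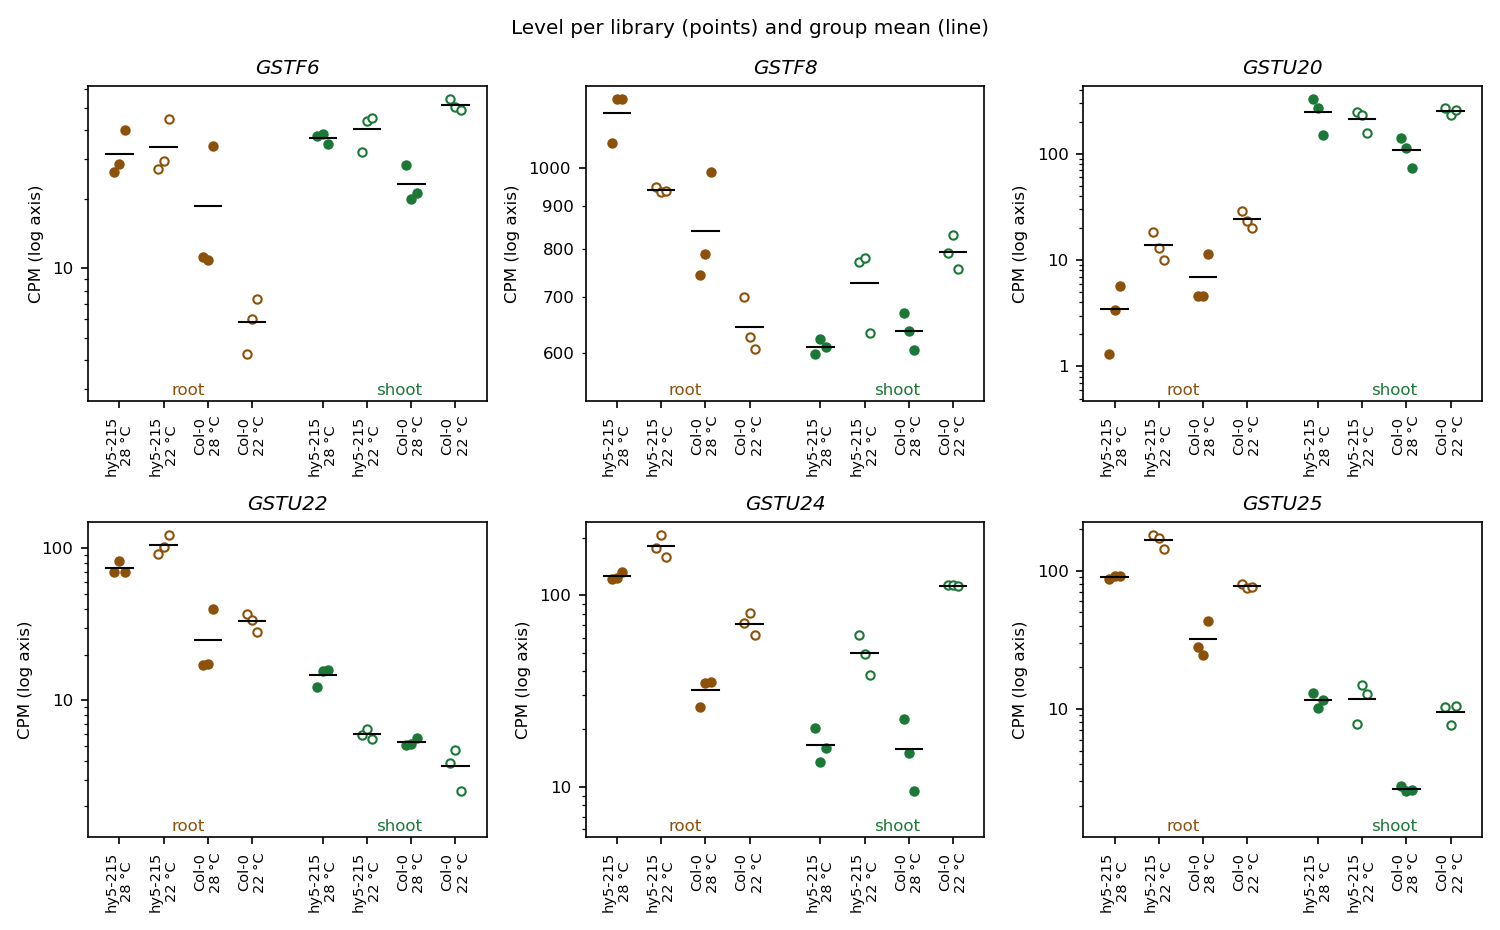
Level in each library (points) and group mean (black line), in CPM on a log axis, of 6 members in roots (brown) and shoots (green), with filled points for 28 °C and open points for 22 °C. In Col-0, *GSTF6* and *GSTF8* are higher at 28 °C in roots and lower in shoots, *GSTU22* is high in roots of *hy5-215*, and *GSTU24* lies at 111 to 113 CPM in Col-0 shoots at 22 °C.

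Between the genotypes, most of the members that passed did so in roots, with higher values in *hy5-215*. At 28 °C, 13 of 30 tested members were higher in *hy5-215* than in Col-0 roots and 2 were lower (7 and 1 DEGs, all genes 3.15% and 1.7%). At 22 °C, 14 of 31 were higher and 4 lower (7 and 2 DEGs, all genes 2.89% and 2.89%). Without the fold limit, 7.07% of all genes were higher and 5.26% lower in *hy5-215* roots at 28 °C, and 6.07% were higher and 5.65% lower at 22 °C. The median log2 fold change of the tested members was 0.38 at 28 °C and 0.52 at 22 °C, against -0.003 and -0.005 for all genes. Leaving out each library in turn gave 11 to 15 higher members at 28 °C and 10 to 14 at 22 °C. *GSTF7*, *GSTF8*, *GSTU1*, *GSTU7*, *GSTU9*, *GSTU19*, *GSTU22*, *GSTU24* and *GSTU25* were higher in *hy5-215* roots at both temperatures, and no member was lower at both. The share of all genes that passed at both temperatures was not computed, so this list has no background beside it. With 1 library left out, the call of *GSTF7* at 28 °C was lost in 5 of 6 fits and that of *GSTU1* at 22 °C in 4 of 6. Both were also lost with DESeq2. The call of *GSTU9* at 28 °C (0.73, edgeR adjusted p = 0.00915) was lost without *hy5-215* replicate 2 (0.65, adjusted p = 0.0799), *hy5-215* replicate 3 (0.64, adjusted p = 0.0594) or Col-0 replicate 2 (0.60, adjusted p = 0.0807).

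*GSTU19* had the largest difference in CPM of the family at both temperatures. It had 995, 1083 and 1081 CPM in *hy5-215* and 259, 276 and 365 CPM in Col-0 roots at 28 °C. For *GSTU19* the log2 fold change was 1.82 (SE 0.10, edgeR adjusted p = 2.71e-13). At 22 °C it had 1352, 1445 and 1241 CPM in *hy5-215* and 496, 474 and 503 CPM in Col-0 roots. For *GSTU19* the log2 fold change was 1.45 (SE 0.11, edgeR adjusted p = 1.12e-09). *GSTU24* had 121, 124 and 132 CPM in *hy5-215* and 26.3, 34.7 and 35.4 CPM in Col-0 roots at 28 °C (log2 fold change 1.97, SE 0.13, edgeR adjusted p = 2.6e-11), and its log2 fold change at 22 °C was 1.34 (SE 0.14, edgeR adjusted p = 2.67e-07). *GSTU25* differed by 1.5 (SE 0.16, edgeR adjusted p = 8.29e-08) at 28 °C and 1.1 (SE 0.14, edgeR adjusted p = 2.3e-06) at 22 °C on the log2 scale. *GSTU22* had 70.2, 82.8 and 69.5 CPM in *hy5-215* and 17.1, 17.3 and 40.2 CPM in Col-0 roots at 28 °C (log2 fold change 1.59, SE 0.20, edgeR adjusted p = 2.41e-06), and a log2 fold change of 1.65 (SE 0.17, edgeR adjusted p = 8.05e-08) at 22 °C. The *hy5-215* and Col-0 root values of *GSTU19*, *GSTU22*, *GSTU24* and *GSTU25* did not overlap at either temperature.

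*GSTU1* and *GSTU7* lie in the cluster of chromosome 2. *GSTU1* (AT2G29490) had 77.5, 71.4 and 76.4 CPM in *hy5-215* and 23, 28.5 and 30.0 CPM in Col-0 roots at 28 °C. For *GSTU1* the log2 fold change was 1.47 (SE 0.14, edgeR adjusted p = 2.33e-08). At 22 °C it had 50.3, 61.9 and 59.0 CPM in *hy5-215* and 43.6, 40.5 and 32.2 CPM in Col-0 roots, a log2 fold change of 0.55 (SE 0.17, edgeR adjusted p = 0.0304) that did not pass without *hy5-215* replicate 2, *hy5-215* replicate 3, Col-0 replicate 2 or Col-0 replicate 3 (adjusted p = 0.087 to 0.162), nor with DESeq2 (adjusted p = 0.076). *GSTU7* (AT2G29420) had 158, 163 and 144 CPM in *hy5-215* and 69.9, 65.0 and 78.4 CPM in Col-0 roots at 28 °C. For *GSTU7* the log2 fold change was 1.14 (SE 0.11, edgeR adjusted p = 3.52e-08). At 22 °C it had 140.1, 122 and 126 CPM in *hy5-215* and 68.5, 70.0 and 71.1 CPM in Col-0 roots. For *GSTU7* the log2 fold change was 0.89 (SE 0.14, edgeR adjusted p = 4.39e-05). *GSTU10* had 14.6, 15.6 and 22.9 CPM in *hy5-215* and 6.24, 4.64 and 7.90 CPM in Col-0 roots at 28 °C. For *GSTU10* the log2 fold change was 1.48 (SE 0.27, edgeR adjusted p = 0.000321). *GSTU8* had 129.9, 148 and 151 CPM in *hy5-215* and 65.0, 76.8 and 78.4 CPM in Col-0 roots at 28 °C (log2 fold change 0.97, SE 0.12, edgeR adjusted p = 7.36e-07), just short of 2-fold. *GSTU9* had 23.3, 27.6 and 36.5 CPM in *hy5-215* and 10.3, 13.5 and 8.05 CPM in Col-0 roots at 22 °C. For *GSTU9* the log2 fold change was 1.43 (SE 0.26, edgeR adjusted p = 0.000295).

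The largest log2 fold changes of the family in roots at 22 °C were those of the phi neighbours. *GSTF6* had 27.0, 29.3 and 44.8 CPM in *hy5-215* and 4.22, 6.0 and 7.38 CPM in Col-0 roots. For *GSTF6* the log2 fold change was 2.55 (SE 0.30, edgeR adjusted p = 7.8e-07). *GSTF7* had 37.7, 48.9 and 82.6 CPM in *hy5-215* and 4.22, 8.50 and 18.8 CPM in Col-0 roots. For *GSTF7* the log2 fold change was 2.52 (SE 0.33, edgeR adjusted p = 5.14e-06). At 28 °C *GSTF6* stood at 26.3, 28.6 and 39.7 CPM in *hy5-215* and 11.2, 10.8 and 34.2 CPM in Col-0 roots, which overlap. For *GSTF6* the log2 fold change was 0.74 (SE 0.28, edgeR adjusted p = 0.0839). *GSTF7* at 28 °C, with 49.1, 43.9 and 67.2 CPM in *hy5-215* and 14.4, 21.1 and 55.3 CPM in Col-0 roots, passed narrowly (log2 fold change 0.81, SE 0.27, edgeR adjusted p = 0.0451). It did not pass without *hy5-215* replicate 1, *hy5-215* replicate 2, *hy5-215* replicate 3, Col-0 replicate 1 or Col-0 replicate 2 (adjusted p = 0.0817 to 0.231), nor with DESeq2 (adjusted p = 0.513) or in the joint fit (adjusted p = 0.055). *GSTF8* had 1072, 1210 and 1210 CPM in *hy5-215* and 744, 789.5 and 987 CPM in Col-0 roots at 28 °C. For *GSTF8* the log2 fold change was 0.48 (SE 0.08, edgeR adjusted p = 0.000215). At 22 °C it had 949, 936 and 939 CPM in *hy5-215* and 699.9, 627 and 606 CPM in Col-0 roots. For *GSTF8* the log2 fold change was 0.55 (SE 0.11, edgeR adjusted p = 0.00108).

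Members lower in *hy5-215* than in Col-0 roots at 22 °C were *GSTU5*, *GSTU16*, *GSTU17* and *GSTU20*. These are 4 of the 13 members that were lower in root than in shoot of Col-0. Of the 13, 7 were higher in *hy5-215* roots (*GSTF2*, *GSTF6*, *GSTF7*, *GSTF8*, *GSTU7*, *GSTU19* and *GSTU24*). Both comparisons use the same Col-0 root libraries at 22 °C, so they are not independent of each other. The matching share of all genes was not computed, and with library size alone 10 members were lower in Col-0 roots than in shoots. *GSTU17* had 2.96, 3.04 and 4.17 CPM in *hy5-215* and 11.7, 11.5 and 8.72 CPM in Col-0 roots (log2 fold change -1.66, SE 0.38, edgeR adjusted p = 0.00356), and *GSTU5* differed by -0.98 (SE 0.21, edgeR adjusted p = 0.00216) on the log2 scale. *GSTU16* had 3.33, 1.93 and 1.04 CPM in *hy5-215* and 6.10, 6.0 and 8.72 CPM in Col-0 roots (log2 fold change -1.70, SE 0.47, edgeR adjusted p = 0.0177). The call of *GSTU16* was lost without *hy5-215* replicate 2, *hy5-215* replicate 3, Col-0 replicate 1, Col-0 replicate 2 or Col-0 replicate 3 (adjusted p = 0.0559 to 0.113). *GSTU20* was at -0.83 (edgeR adjusted p = 0.0281) on the log2 scale, and its call was lost without *hy5-215* replicate 2, *hy5-215* replicate 3, Col-0 replicate 1 or Col-0 replicate 2 (adjusted p = 0.0804 to 0.163), with DESeq2 (adjusted p = 0.0704) and in the joint fit (adjusted p = 0.0786). *GSTF13* was lower in *hy5-215* roots at 28 °C, with 5.46, 5.97 and 3.06 CPM in *hy5-215* and 8.53, 13.6 and 16.1 CPM in Col-0. For *GSTF13* the log2 fold change was -1.34 (SE 0.31, edgeR adjusted p = 0.00359).

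The remaining tested members are *GSTF4*, *GSTU2*, *GSTU13*, *GSTU14*, *GSTU23*, *GSTU26*, *GSTU27* and *GSTU28*, none of which passed at 28 °C against 22 °C in any group. *GSTU13* (AT1G27130), known for a part in indole glucosinolate metabolism during defence, was the most abundant of them, with group means of 69.3 to 149 CPM, and the others had group means from 1.47 CPM (*GSTU14* in Col-0 shoots at 28 °C) to 126 CPM (*GSTU26* in *hy5-215* roots at 22 °C). At 22 °C, *GSTU28* (0.83, edgeR adjusted p = 0.0147), *GSTU13* (0.53, edgeR adjusted p = 0.0114) and *GSTU26* (0.45, edgeR adjusted p = 0.0315) were higher in *hy5-215* than in Col-0 roots on the log2 scale. At 28 °C *GSTU14* was lower in *hy5-215* roots (-0.75, edgeR adjusted p = 0.00717). The call of *GSTU28* was lost without *hy5-215* replicate 3 (0.73, adjusted p = 0.0752) or Col-0 replicate 2 (0.74, adjusted p = 0.0901), and that of *GSTU13* without *hy5-215* replicate 2 (0.49, adjusted p = 0.0853), Col-0 replicate 1 (0.50, adjusted p = 0.0546) or Col-0 replicate 2 (0.44, adjusted p = 0.124). The call of *GSTU26* was lost without *hy5-215* replicate 2, *hy5-215* replicate 3, Col-0 replicate 2 or Col-0 replicate 3 (adjusted p = 0.0529 to 0.154), and that of *GSTU14* without *hy5-215* replicate 1 (-0.61, adjusted p = 0.0684). *GSTU14*, *GSTU26* and *GSTU28* were root genes in both genotypes at 22 °C, with log2 fold changes over shoot of 2.06 to 2.66 in *hy5-215* and 2.01 to 2.92 in Col-0.

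In roots, the sums of the root genes, and at 22 °C those of the green tissue genes, also differed between the genotypes. Their part in these values was not tested. The summed root genes were 1028 to 1122 CPM in *hy5-215* and 668 to 717 CPM in Col-0 roots at 28 °C, and 1172 to 1295 CPM in *hy5-215* and 474 to 505 CPM in Col-0 roots at 22 °C. Of the 8, TIP2;3 had the largest difference, with a mean of 631 CPM in *hy5-215* and 306 CPM in Col-0 roots at 28 °C, and 720 CPM in *hy5-215* and 167 CPM in Col-0 roots at 22 °C, and NRT2.1 had at most 2 counts in any library. The summed green tissue genes were 407 to 738 CPM in *hy5-215* and 471 to 626 CPM in Col-0 roots at 28 °C, which overlap. At 22 °C they were 422 to 507 CPM in *hy5-215* and 854 to 1026 CPM in Col-0 roots, the highest of the root groups. The touch and wound genes ran in opposite directions at the 2 temperatures. In *hy5-215* roots 4 of 9 were higher at 28 °C (all genes 7.07%) and 6 of 9 lower at 22 °C (all genes 5.65%).

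In shoots fewer members passed between the genotypes, and those at 22 °C were all lower in *hy5-215*. At 28 °C, 7 of 27 tested members were higher in *hy5-215* than in Col-0 shoots and 2 were lower (3 and 1 DEGs, all genes 1.13% and 0.681%). At 22 °C none of 25 was higher and 3 were lower (1 DEG, all genes 0.695% higher and 1.04% lower). Without the fold limit, 3.07% of all genes were higher and 2.79% lower in *hy5-215* shoots at 28 °C, and 5.13% and 4.24% at 22 °C. The unadjusted p was under 0.05 for 16 of the 27 at 28 °C (59.3%, all genes 18.8%) and 7 of the 25 at 22 °C (28%, all genes 20.5%), and with DESeq2 no member was higher at 22 °C either. Leaving out each library in turn gave 4 to 9 higher members at 28 °C, with 2 DEGs without *hy5-215* replicate 1 and no lower member without Col-0 replicate 2.

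At 28 °C *GSTU25* had 13.1, 10.2 and 11.6 CPM in *hy5-215* and 2.77, 2.56 and 2.60 CPM in Col-0 shoots (log2 fold change 2.11, SE 0.34, edgeR adjusted p = 0.000536). *GSTU22* had 12.2, 15.6 and 15.9 CPM in *hy5-215* and 5.07, 5.12 and 5.63 CPM in Col-0 shoots. For *GSTU22* the log2 fold change was 1.46 (SE 0.28, edgeR adjusted p = 0.00231). *GSTU20* had 328, 268 and 148 CPM in *hy5-215* and 139.8, 112 and 74.1 CPM in Col-0 shoots (log2 fold change 1.2, SE 0.22, edgeR adjusted p = 0.00144). It was under 2-fold without *hy5-215* replicate 1 (0.96, adjusted p = 0.01) or Col-0 replicate 3 (0.99, adjusted p = 0.00608), and did not pass with DESeq2 (adjusted p = 0.0905). *GSTF3* (AT2G02930), a close copy of *GSTF2*, had 2, 5 and 1 counts in *hy5-215* and 11, 15 and 10 counts in Col-0 shoots at 28 °C. For *GSTF3* the log2 fold change was -2.19 (SE 0.52, edgeR adjusted p = 0.0126). It lost its call without *hy5-215* replicate 1 (-2.04, adjusted p = 0.0676), *hy5-215* replicate 3 (-1.91, adjusted p = 0.052) or Col-0 replicate 2 (-2.03, adjusted p = 0.106) and with DESeq2 (adjusted p = 0.0576). Less than 2-fold higher in *hy5-215* were *GSTU8* (0.75, edgeR adjusted p = 0.00846), *GSTF6* (0.69, edgeR adjusted p = 0.0174), *GSTF9* (0.49, edgeR adjusted p = 0.024) and *GSTU19* (0.44, edgeR adjusted p = 0.0377), and *GSTF2* was lower (-0.55, edgeR adjusted p = 0.00532), all on the log2 scale. The call of *GSTU8* was lost without Col-0 replicate 2 (0.71, adjusted p = 0.0631), and that of *GSTF6* without *hy5-215* replicate 1, *hy5-215* replicate 2, Col-0 replicate 2 or Col-0 replicate 3 (adjusted p = 0.0514 to 0.122). The call of *GSTF9* was lost without *hy5-215* replicate 1, *hy5-215* replicate 2, Col-0 replicate 2 or Col-0 replicate 3 (adjusted p = 0.0771 to 0.157). For *GSTU19* it was lost without *hy5-215* replicate 1, *hy5-215* replicate 2, Col-0 replicate 2 or Col-0 replicate 3 (adjusted p = 0.107 to 0.174), and for *GSTF2* without *hy5-215* replicate 2 (-0.50, adjusted p = 0.0806) or Col-0 replicate 2 (-0.53, adjusted p = 0.0564). The calls of *GSTF6* and *GSTU19* were also lost with DESeq2 (adjusted p = 0.0786 and 0.0597), that of *GSTF6* in the joint fit (adjusted p = 0.126) and that of *GSTU19* with library size alone (adjusted p = 0.0574). Of the touch and wound genes, 6 of 9 were higher in *hy5-215* shoots at 28 °C (all genes 3.07%). Their summed levels were 355 to 688 CPM in *hy5-215* and 171 to 502 CPM in Col-0. Green tissue genes were higher in *hy5-215* shoots as well, 3 of 8 at 28 °C (all genes 3.07%). The green tissue sums there were 55240 to 56230 CPM in *hy5-215* and 38610 to 50780 CPM in Col-0. At 22 °C 6 of 8 green tissue genes were higher, as were 2 of 4 tested root genes (all genes 5.13%). The green tissue sums at 22 °C were 70670 to 72370 CPM in *hy5-215* and 54670 to 60380 CPM in Col-0. The part of these lists in the GST values was not tested.

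**Figure D4:**
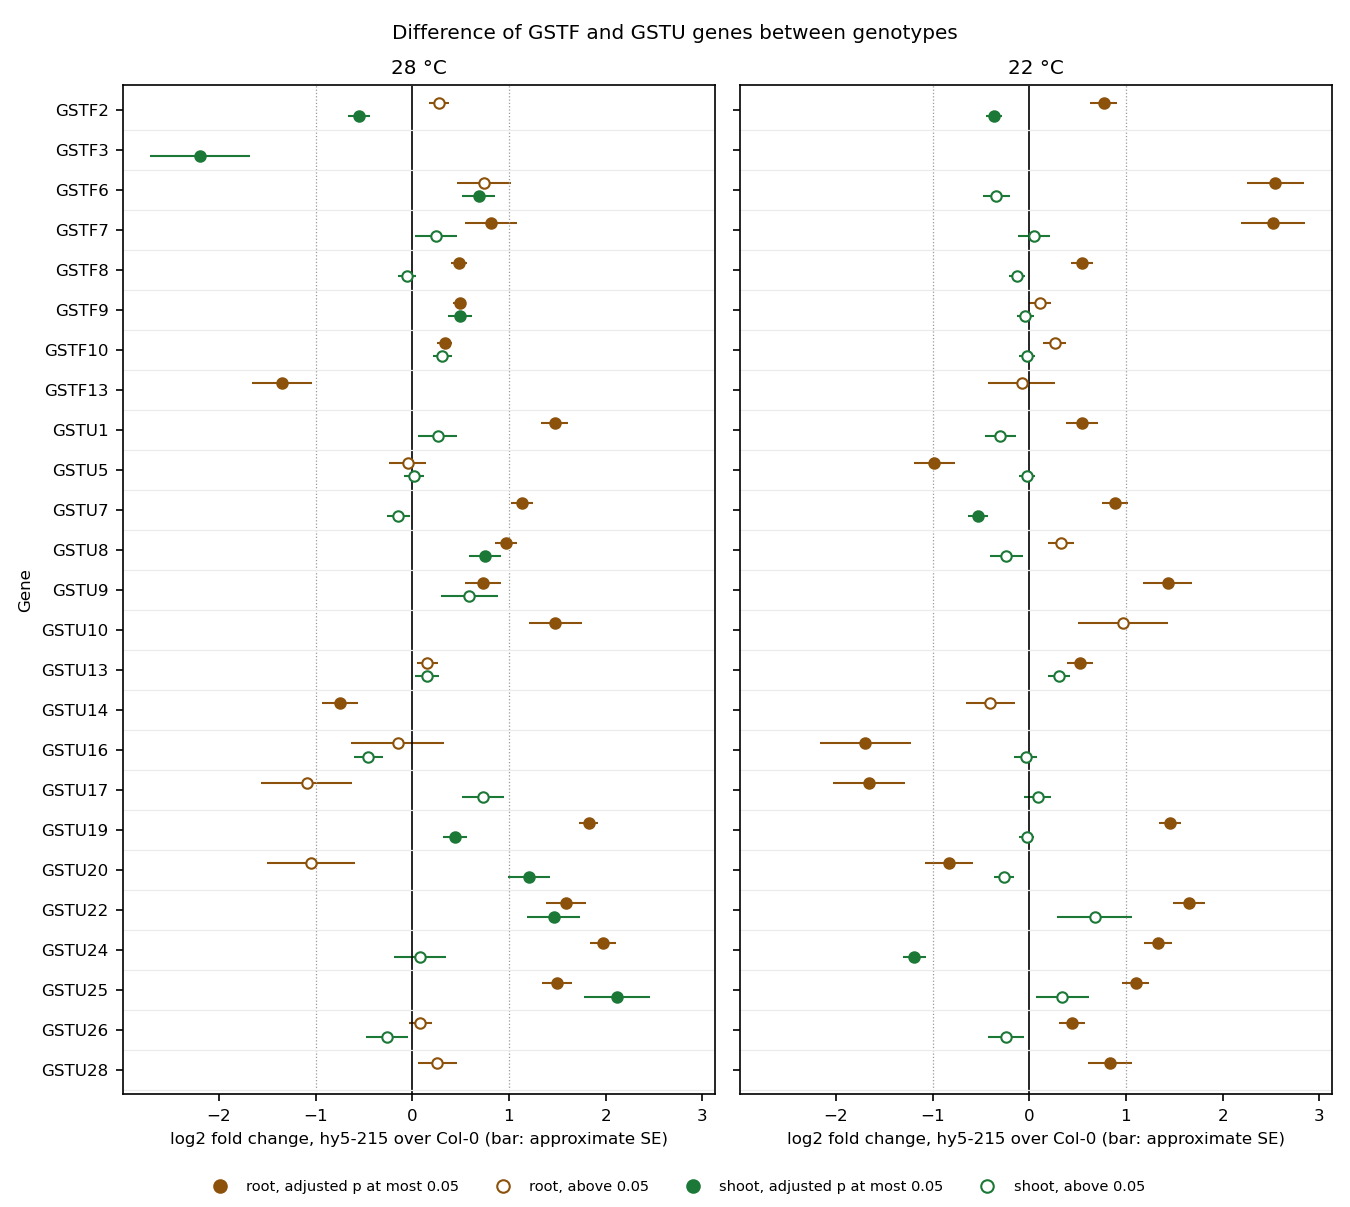
Log2 fold change, *hy5-215* over Col-0, of the 25 members that passed in at least 1 of the 4 genotype comparisons, in root (brown) and shoot (green) at 28 °C (left) and 22 °C (right), with filled points at an adjusted p of at most 0.05, bars for the approximate SE and dotted lines at 2-fold. At 22 °C, *GSTF2*, *GSTU7* and *GSTU24* are higher in *hy5-215* roots and lower in *hy5-215* shoots, with *GSTU24* at 1.34 in roots and -1.19 in shoots.

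At 22 °C, 3 members passed between the genotypes in both organs, and all 3 had opposite signs there, higher in *hy5-215* roots and lower in *hy5-215* shoots. They were 3 of 24 members tested in both organs, where 0.944% of all genes had opposite signs and 1.83% the same sign. *GSTU24* had 177, 206 and 159 CPM in *hy5-215* and 71.3, 80.5 and 61.7 CPM in Col-0 roots, and 61.9, 49.5 and 38.2 CPM in *hy5-215* and 113, 113 and 111 CPM in Col-0 shoots (shoot log2 fold change -1.19, SE 0.12, edgeR adjusted p = 2.41e-10). *GSTU7* had 127, 98.7 and 85.8 CPM in *hy5-215* and 136, 158 and 151 CPM in Col-0 shoots. For *GSTU7* the log2 fold change was -0.53 (SE 0.11, edgeR adjusted p = 0.000374). *GSTF2* (AT4G02520), which binds indoles and other small molecules, had 235, 220.4 and 224 CPM in *hy5-215* and 108, 136 and 156 CPM in Col-0 roots (log2 fold change 0.77, SE 0.14, edgeR adjusted p = 0.000308), and 219.9, 226 and 228 CPM in *hy5-215* and 281, 299 and 284 CPM in Col-0 shoots. For *GSTF2* the log2 fold change in shoots was -0.36 (SE 0.08, edgeR adjusted p = 0.00139), and it did not pass in the joint fit of all 24 libraries (adjusted p = 0.0561). *GSTF2* overlaps a gene on the opposite strand. The difference between the organs, tested as the root effect minus the shoot effect, was 2.52 (SE 0.20, edgeR adjusted p = 2.28e-12) for *GSTU24*, 1.41 (SE 0.18, edgeR adjusted p = 3.33e-07) for *GSTU7* and 1.14 (SE 0.16, edgeR adjusted p = 1.81e-06) for *GSTF2*. At 28 °C, 5 of 24 members passed in both organs with the same sign (all genes 1.55%) and none with opposite signs (all genes 0.287%). Of 32 members tested, 7 passed this test of organ and genotype at 28 °C and 11 at 22 °C, where 4.5% and 6.48% of all genes did.

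Whether the temperature response itself depended on the genotype was tested for each organ as the *hy5-215* change minus the Col-0 change. In shoots 5 of 28 tested members passed, all with a positive value (*GSTF6*, *GSTU8*, *GSTU20*, *GSTU24* and *GSTU25*), against 1.03% of all genes. *GSTU20* had a value of 1.46 (SE 0.27, edgeR adjusted p = 0.00517), which held without each of the 12 libraries but not with DESeq2 (adjusted p = 0.127). The value of *GSTF6* (1.02, edgeR adjusted p = 0.0147) was lost without *hy5-215* replicate 2 at 28 °C (0.98, adjusted p = 0.0656) or Col-0 replicate 2 at 28 °C (0.92, adjusted p = 0.0634), and in the joint fit (adjusted p = 0.25). That of *GSTU24* (1.25, edgeR adjusted p = 0.0216) was lost without *hy5-215* replicate 1 at 28 °C, *hy5-215* replicate 3 at 22 °C, Col-0 replicate 2 at 28 °C, Col-0 replicate 3 at 28 °C or Col-0 replicate 3 at 22 °C (adjusted p = 0.0518 to 0.13). Those of *GSTU25* (1.76, edgeR adjusted p = 0.0456) and *GSTU8* (0.97, edgeR adjusted p = 0.0403) were lost in 9 and 8 of the 12 fits with 1 library left out, with adjusted p values of up to 0.128 and 0.139. Both were lost in the joint fit (adjusted p = 0.0506 each), and that of *GSTU8* with DESeq2 (adjusted p = 0.0956). In roots *GSTU1* alone passed of 32 tested (0.93, edgeR adjusted p = 0.0182), against 1.41% of all genes. The value of *GSTU1* was lost without *hy5-215* replicate 1 at 28 °C, *hy5-215* replicate 1 at 22 °C, Col-0 replicate 1 at 28 °C, Col-0 replicate 1 at 22 °C or Col-0 replicate 2 at 22 °C (adjusted p = 0.0565 to 0.0859). *GSTU1* in roots had 77.5, 71.4 and 76.4 CPM at 28 °C and 50.3, 61.9 and 59.0 CPM at 22 °C in *hy5-215*, and 23, 28.5 and 30.0 CPM at 28 °C and 43.6, 40.5 and 32.2 CPM at 22 °C in Col-0.

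Genes that work with the transferases were taken as lists of 10 glutathione genes (synthesis, reduction, breakdown and vacuolar export) and 14 glutathione transferase genes outside the 39. In shoots at 28 °C, none of 9 tested glutathione genes rose, while 5 fell in *hy5-215* and 6 in Col-0. Of all genes, 7.52% rose and 9.32% fell in *hy5-215* shoots, and 11.5% rose and 13.5% fell in Col-0 shoots. The DEGs of Col-0 were *GR1*, a glutathione reductase (log2 fold change -1.38, SE 0.12, edgeR adjusted p = 4.46e-09), and *ABCC3*, a vacuolar transporter of glutathione conjugates (log2 fold change -1.15, SE 0.16, edgeR adjusted p = 5.63e-06). In roots at 28 °C no glutathione gene passed in *hy5-215* (0 with an unadjusted p under 0.05) and 1 rose in Col-0. Of all genes, 3.12% rose and 2.96% fell in *hy5-215* roots, and 2.62% rose in Col-0 roots. Between the genotypes, 1 of 9 was higher in *hy5-215* roots at 28 °C and 2 at 22 °C (all genes 7.07% and 6.07%). Among them was *GSH1*, which makes the first step of glutathione synthesis. For *GSH1* the log2 fold change was 0.40 (SE 0.11, edgeR adjusted p = 0.0171) at 28 °C and 0.81 (SE 0.12, edgeR adjusted p = 3.83e-05) at 22 °C.

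Among the other transferases, *GSTF12*, the phi gene that carries anthocyanins to the vacuole, had 7.16, 6.54 and 1.45 CPM at 28 °C and 6.38, 4.41 and 2.98 CPM at 22 °C in *hy5-215* shoots. In Col-0 shoots it had 2.77, 0.427 and 0 CPM at 28 °C and 14.6, 13.3 and 8.86 CPM at 22 °C. Its fall in Col-0 shoots was -3.51 (SE 0.51, edgeR adjusted p = 1.15e-05) on the log2 scale, and the *hy5-215* change minus the Col-0 change was 3.71 (SE 0.77, edgeR adjusted p = 0.012). *GSTL1*, of the lambda class, was higher in *hy5-215* than in Col-0 roots at 28 °C (log2 fold change 1.75, SE 0.28, edgeR adjusted p = 5.28e-05). Over the 14 genes, 3 rose and 1 fell in *hy5-215* shoots at 28 °C (11 tested, all genes 7.52% and 9.32%). In Col-0 shoots 3 fell and none rose (11 tested, all genes 13.5% and 11.5%). In roots at 28 °C, 3 of 12 were higher in *hy5-215* than in Col-0 and none lower (all genes 7.07% and 5.26%).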

How the data were processed

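RNA of root and shoot from Col-0 and *hy5-215* seedlings at 22 or 28 °C was made into 3′Tag-Seq libraries, and the authors deposited whole-number counts per gene in 4 tables with 6 libraries each, not normalized. The submitters' processing notes name FastQC, HISAT2, HTSeq, edgeR and TAIR10, without versions. Use of strand in counting is not given in the sources used here. Groups were taken from sample titles, since the genotype label calls all samples wild type where the titles name *hy5-215*. The paper describes the replicates as biological.

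Counts were tested in R 4.3.3 with edgeR 4.0.16 (quasi-likelihood test, TMM scaling, filterByExpr with a minimum count of 10 and minimum total of 15), with Benjamini-Hochberg adjustment over all genes tested. Each comparison of 2 groups was fitted on its 6 libraries and each interaction on its 12. The DEG limits followed the paper (adjusted p no greater than 0.05, change no smaller than 2-fold), and interactions used the adjusted p alone. The SE is the log2 fold change divided by the square root of F and is approximate. CPM are counts per 1000000 scaled by TMM over all 24 libraries. Depth was 1212281 to 3781032 counts per library, so 1 count was worth about 0.26 to 0.82 CPM before scaling. A group with 3 counts or fewer in each library was taken as at the floor. Replicates differed by more than sampling noise (chi-square per degree of freedom 1.45 to 4.25). The edgeR steps were tested on simulated data.

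Alternatives were DESeq2 1.42.0, library size alone, no filter, no fold limit, the replicate block, a joint fit and each library left out. Per-library values were given for members that were DEGs, passed an interaction, differed in sign between organs or were at the ends of the organ order in Col-0. The other members were given by counts and ranges. The members were listed by identifier, without a measured value, but this family and the lists were chosen with earlier results of these data known. Upstream windows of 250 bases, and the last 300 bases of transcripts compared with blastn 2.17.0+, were read from RefSeq TAIR10.1, and no protein sequences were used. One upstream window is not reported here.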

Additional observations from a re-analysis of the deposited data

Results flagged for a closer look

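The values here are differences between 2 effects that passed edgeR's test at an adjusted p of at most 0.05 in the member named, as log2 differences. Touch and wound genes, green tissue genes and root genes also differed between these groups, with the sums given in the report, and their part in these values was not tested.

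In *hy5-215*, the root change at 28 °C minus the shoot change was 0.60 for *GSTF8*, 0.84 for *GSTU1*, 1.1 for *GSTU24*, -2.29 for *GSTU20* and -1.74 for *GSTU22*. In Col-0 it was 2.85 for *GSTF6*, 0.70 for *GSTF8*, 0.62 for *GSTF10* and 1.69 for *GSTU24*. *GSTF8* and *GSTU24* thus passed in both genotypes with the same sign. The *hy5-215* value of *GSTU1* was lost without root replicate 1 at 28 °C, shoot replicate 2 at 28 °C, shoot replicate 3 at 28 °C, root replicate 1 at 22 °C or shoot replicate 2 at 22 °C (adjusted p = 0.0618 to 0.212).

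The *hy5-215* change at 28 °C minus the Col-0 change was positive in each member that passed. In shoots it was 1.02 for *GSTF6*, 0.97 for *GSTU8*, 1.46 for *GSTU20*, 1.25 for *GSTU24* and 1.76 for *GSTU25*, and in roots 0.93 for *GSTU1*. Each of these except that of *GSTU20* was lost without at least 2 of the 12 libraries.

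The *hy5-215* effect in roots minus that in shoots at 28 °C was 0.79 for *GSTF2*, 1.17 for *GSTU1*, 1.24 for *GSTU7*, 1.35 for *GSTU19*, 1.85 for *GSTU24*, -1.86 for *GSTU17* and -2.32 for *GSTU20*. At 22 °C it was 1.14 for *GSTF2*, 2.89 for *GSTF6*, 2.47 for *GSTF7*, 0.67 for *GSTF8*, 0.84 for *GSTU1*, 1.41 for *GSTU7*, 1.48 for *GSTU19* and 2.52 for *GSTU24*, and -0.97 for *GSTU5*, -1.66 for *GSTU16* and -1.76 for *GSTU17*. At 28 °C the values of *GSTU17* and *GSTU20* were lost without *hy5-215* root replicate 1, *hy5-215* root replicate 2, *hy5-215* shoot replicate 2, Col-0 root replicate 3, Col-0 shoot replicate 2 or Col-0 shoot replicate 3 (adjusted p = 0.0552 to 0.133) for *GSTU17* and without *hy5-215* root replicate 1 (-1.86, adjusted p = 0.0721) or Col-0 root replicate 3 (-1.72, adjusted p = 0.135) for *GSTU20*, and at 22 °C that of *GSTU1* without *hy5-215* root replicate 2, *hy5-215* shoot replicate 1, *hy5-215* shoot replicate 3, Col-0 root replicate 3, Col-0 shoot replicate 1 or Col-0 shoot replicate 3 (adjusted p = 0.0528 to 0.109). With DESeq2 those of *GSTU20* (adjusted p = 0.0593) and *GSTU1* (adjusted p = 0.0698) were lost as well.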

How the results depend on the processing

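Of 170 member calls over the 16 comparisons, 121 held without each single library, and 49 were lost without at least 1. DESeq2 lost 16 calls, a joint fit of all 24 libraries 11, scaling by library size alone 6, the replicate block 2 (*GSTU17* at -1.43 and *GSTF8* at 0.38 in Col-0 roots at 28 °C) and the absence of a filter on low counts 0. One call reversed: *GSTF8* in Col-0 roots over shoots at 22 °C was 0.19 with library size alone, against -0.28. The cause of these changes was not tested.

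Without the 2-fold limit, members called at 28 °C over 22 °C numbered 5 in *hy5-215* shoots, 14 in Col-0 shoots, 8 in *hy5-215* roots and 11 in Col-0 roots, and members called in *hy5-215* over Col-0 numbered 9 in shoots at 28 °C, 3 in shoots at 22 °C, 15 in roots at 28 °C and 18 in roots at 22 °C. DESeq2 called 2 members in *hy5-215* over Col-0 shoots at 28 °C and 2 for the interaction of genotype and temperature in shoots. The joint fit called 2 for that interaction in shoots and 4 in roots, and 4 were called in roots without a filter on low counts. Replicate numbers were not used to pair the libraries, since in no comparison did all same-numbered pairs correlate above 0.1. In *hy5-215* over Col-0 shoots at 28 °C the pairs correlated at 0.161, -0.006 and 0.184. With the replicate block 10 members were higher and 3 lower in that comparison, against 7 and 2 without it. The block also gave 3 members for the interaction of genotype and temperature in roots.

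With each library left out in turn, DEGs at 28 °C over 22 °C numbered 3 to 4 in *hy5-215* shoots, 5 to 9 in Col-0 shoots, 1 to 2 in *hy5-215* roots and 4 to 7 in Col-0 roots. DEGs in *hy5-215* over Col-0 numbered 2 to 5 in shoots at 28 °C, 1 in shoots at 22 °C and 8 to 11 in roots at either temperature. DEGs in root over shoot numbered 19 in *hy5-215* and 18 to 22 in Col-0. The interaction of tissue and temperature gave 3 to 7 members in *hy5-215* and 4 to 5 in Col-0, that of genotype and temperature 2 to 7 in shoots and 0 to 4 in roots, and that of genotype and tissue 6 to 7 at 28 °C and 10 to 12 at 22 °C. The counts of risen and fallen members under each left-out library were added after the values were seen.

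Depth limits the members with few counts most, such as *GSTF3*, *GSTF11*, *GSTF13* and *GSTU16*. The 6 untested members had too few counts at this depth for a difference to be detectable.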
